A study of Mus musculus with 14 samples.

Results

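The Nrf2 circuit was followed through 10 genes: the human vector transcript NFE2L2, its mouse counterpart Nfe2l2, the related factors Nfe2l1 and Nfe2l3, the inhibitor Keap1, the autophagy receptor Sqstm1, the repressor Bach1 and the small Mafs Mafg, Maff and Mafk. They were chosen by name and make up 10 of the 34453 rows of the table, which holds 34452 mouse genes and the vector. The retinal pigment epithelium (RPE) was sampled at postnatal day 20 in the rd1 strain, an FVB/N line that lacks functional Pde6b, the rod phosphodiesterase, and loses its rods in early life. All eyes received an adeno-associated virus (AAV) with green fluorescent protein under the human Best1 promoter, which is active in RPE, and in each of 7 mice the Nrf2 eye received in addition an AAV with human Nrf2 (hNrf2) under the same promoter. The control eye was the other eye of that mouse. The Nrf2 vector had the AAV8 capsid and the fluorescent vector the 7M8 capsid, so the Nrf2 eye differed from its control by the transgene and also by an extra virus and a higher total dose, which cannot be told apart. RNA was collected as the supernatant of an opened eyecup after removal of the retina, so each library is a tissue lysate and not a sorted cell type.

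Nrf2 is a bZIP transcription factor of the cap'n'collar (CNC) family. Keap1, the substrate adaptor of a Cul3 ubiquitin ligase, holds Nrf2 in the cytoplasm and marks it for degradation, and oxidants that modify Keap1 cysteines let Nrf2 accumulate. In the nucleus Nrf2 pairs with a small Maf protein and binds antioxidant response elements beside genes for glutathione synthesis, quinone reduction and iron handling. Bach1 is a heme-sensing CNC repressor that competes for the same small Mafs and the same elements, and Sqstm1 (p62) is an autophagy receptor that sequesters Keap1. In the RPE this circuit is known for defence against oxidants from light and from shed photoreceptor membranes.

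The core of the antioxidant response element, TGACNNNGC on either strand (GCNNNGTCA when read on the other strand), was searched in the RefSeq promoter windows of the 9 mouse genes, 250 bases before to 50 bases after each start. The core begins with the same TGAC as the AP-1 site TGACTCA, so the letters are shared in part with another factor family. All 9 genes had an entry in the RefSeq table, 15 windows in all because Nfe2l1 and Maff have several starts, and 4 windows from 4 genes held the core, against 4071 of 32851 windows of all genes (12.4%). The matches are shown with 10 bases on each side, 5′ to 3′ on the strand of the gene (build GRCm38.p6), with the core in capitals.
Nfe2l2, chr2:75704885-75704913, minus strand: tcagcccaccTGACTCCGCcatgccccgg
Mafg, chr11:120633751-120633779, minus strand: ctctgcaggaGCACGGTCAacccggcgag
Maff, chr15:79346499-79346527, plus strand: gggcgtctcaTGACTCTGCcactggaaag
Mafk, chr5:139791513-139791541, plus strand: gatcccggaaGCGGTGTCAgtactgggga

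The core lay 240 bases upstream of the Nfe2l2 start, 222 upstream of Mafg, 112 upstream of Maff and 13 upstream of Mafk. The windows of Keap1, Sqstm1 and Bach1, the mouse members that passed the test below, held no match. Their 250 bases upstream of the start are printed because these are the promoters of the genes that differed, all in lower case because nothing in them matched.
Keap1, chr9:21239333-21239582, minus strand: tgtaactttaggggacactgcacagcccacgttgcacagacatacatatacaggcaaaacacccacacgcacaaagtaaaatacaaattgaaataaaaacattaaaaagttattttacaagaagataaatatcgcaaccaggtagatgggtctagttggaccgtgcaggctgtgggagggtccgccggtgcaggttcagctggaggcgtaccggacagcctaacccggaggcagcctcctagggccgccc
Sqstm1, chr11:50210821-50211070, minus strand: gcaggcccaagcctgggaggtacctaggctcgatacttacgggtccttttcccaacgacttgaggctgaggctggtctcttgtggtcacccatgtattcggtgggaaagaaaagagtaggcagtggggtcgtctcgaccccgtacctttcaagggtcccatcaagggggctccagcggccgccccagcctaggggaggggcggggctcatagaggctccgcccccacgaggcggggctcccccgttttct
Bach1, chr16:87698704-87698953, plus strand: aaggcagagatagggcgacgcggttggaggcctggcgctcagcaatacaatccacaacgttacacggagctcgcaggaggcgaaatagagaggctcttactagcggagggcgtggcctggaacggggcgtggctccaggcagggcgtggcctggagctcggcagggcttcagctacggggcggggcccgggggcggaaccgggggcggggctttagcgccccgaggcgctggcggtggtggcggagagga

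Library depth ranged from 16548349 to 50543008 total counts, and levels below are counts per 1000000 total counts of the library (CPM) unless stated. A pair of libraries stood apart from their labels. Control 3 and Nrf2 4, which the labels assign to different mice and different groups, were the most alike of all 91 pairs of libraries, with a median absolute log2 difference of 0.09 over 12039 genes, while the next pair (Nrf2 1 and Nrf2 3) differed by 0.15. Their chi-square per degree of freedom was 8.85, against 61.2 or more in the other pairs. This measure covers counting error only and does not show that the libraries are independent, and they were kept separate because the labels list them so. The library labelled control 3 also held the vector transcript at the level of the library labelled Nrf2 4, which goes against its label, and whether samples or labels of mice 3 and 4 were mixed was not tested. The study's methods describe fewer pairs at this age than the labels do, without naming the omitted pair. All counts of mice below take the labels as given. Ranges and fold changes of the members are therefore also given without mice 3 and 4. Correlations, gene lists, the small Maf sum and length-scaled levels were not repeated without both mice. RPE markers were abundant in all 14 libraries, with the summed level of 12 genes between 8238 and 32224 CPM, and 1 of the 12, the visual cycle isomerase Rpe65, was lower in Nrf2 eyes (log2 fold change -2.17, adjusted p = 0.0199). Of the marker lists for other cells, 2 of 8 cone genes were lower (Opn1sw and Gnat2), 1 of 8 rod genes was higher (Rom1), and none passed for blood, muscle, fibroblasts, endothelium, immune cells, melanocytes, the inner retina or a surface epithelium.

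The vector transcript was far more abundant in eyes that received it. In control eyes NFE2L2 ranged from 1.12 CPM in control 1 through a median of 51.8 to 1163 in control 3. In Nrf2 eyes it ranged from 1163 CPM in Nrf2 4 through a median of 5868 to 8711 in Nrf2 1. The ranges met at the pair of alike libraries, control 3 and Nrf2 4, and on the scale of trimmed-mean (TMM) effective library sizes they overlapped, at 1161 and 1147. NFE2L2 was higher in the Nrf2 eye of 7 of 7 mice, with a smallest per-mouse log2 difference of 2.74 in mouse 3 and a largest of 13.19 in mouse 1. The largest differences, in mice 1 and 6, rest on 45 and 28 vector counts in the control eye. The log2 fold change was 7.36 (SE 1.74), but with the edgeR quasi-likelihood test, mouse as a block, it did not pass the threshold of 0.05 (adjusted p = 0.0598 over 16290 rows). The exact two-sided sign-flip permutation test gave p = 0.0156, the smallest that 7 mice allow. Without mice 3 and 4 the control eyes ended at 175 CPM, the Nrf2 eyes began at 4577, and the log2 fold change was 9.60 with an adjusted p of 0.0338.

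**Figure D1:**
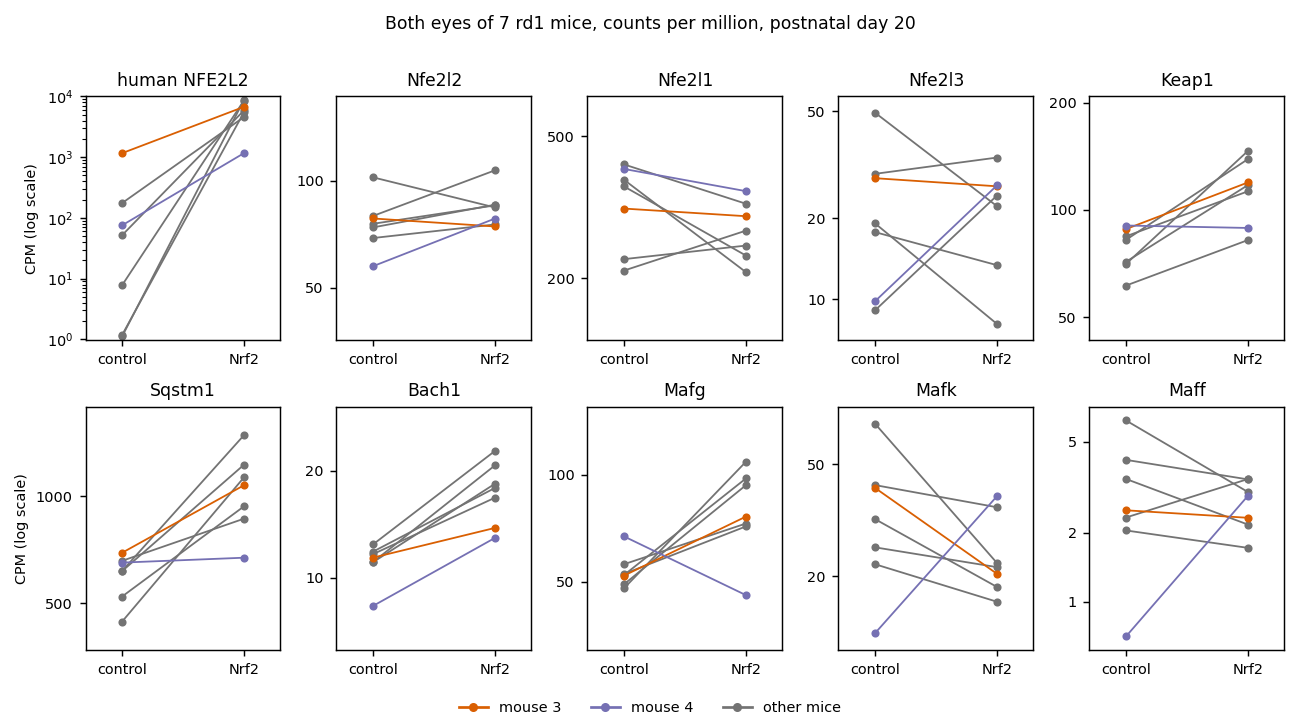
CPM of the 10 genes (vertical, log scale, a separate range for each gene) in the control and Nrf2 eye of each of 7 mice; each line joins the eyes of 1 mouse, with mice 3 and 4 in colour. The lines of Bach1 and Sqstm1 rise in 7 of 7 mice, and those of Mafk slope down in all mice but mouse 4.

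Among the 9 mouse genes, 3 passed the test, all higher in Nrf2 eyes: Keap1, Sqstm1 and Bach1. Over all 16289 mouse genes tested, 3.43% passed, 2.94% higher and 0.491% lower. The median log2 fold change was -0.04 over all genes (quartiles -0.32 and 0.20), and TMM scaling placed the median per-mouse difference 0.13 above its place under total-count scaling. Fold changes and the numbers of mice below are on the TMM scale. In whole-tissue RNA, fewer cells of a type and less RNA per cell cannot be told apart, which applies to every level given here.

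None of the endogenous CNC activators passed the test over all genes. Mouse Nfe2l2, the gene for Nrf2 itself, ranged from 57.5 through 75.7 to 102 CPM (lowest, median, highest) in control eyes and from 74.4 through 84.1 to 107 CPM in Nrf2 eyes. The ranges overlapped over most of their length, although 6 of 7 mice were higher in the Nrf2 eye. The log2 fold change was 0.28 (SE 0.10, 95% interval 0.04 to 0.51, adjusted p = 0.20), the exact sign-flip permutation test gave p = 0.0313, and under total-count scaling 5 of 7 mice were higher. Human and mouse Nrf2 transcripts share stretches of sequence, and the quantification divides such reads by a model. Mouse Nfe2l2 counts amounted to 0.865% to 6.73% of vector counts in Nrf2 eyes, and the part of misassigned vector reads in the mouse value was not tested. Nfe2l1, which restores proteasome subunits when the proteasome is impaired, spanned 210 to 417 CPM (median 362) in control eyes. In Nrf2 eyes it reached 208 to 351 CPM (median 272). Its log2 fold change was -0.10 (SE 0.17, 95% interval -0.50 to 0.29, adjusted p = 0.79), higher in 3 of 7 mice. Nfe2l3, the least studied of the CNC activators, spread more between eyes of 1 group than between groups, from 9.09 to 49.5 CPM in control eyes and from 8.10 to 33.7 in Nrf2 eyes. Its log2 fold change was 0.14 with a 95% interval of -0.79 to 1.08 (adjusted p = 0.89), which allows a change in either direction.

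Keap1 and Sqstm1, the proteins that act on Nrf2 in the cytoplasm, were both higher in Nrf2 eyes. Keap1 (chromosome 9, 21229730 to 21239361, minus strand, GRCm38) ranged from 61.3 through 82.4 to 90.4 CPM in control eyes and from 82.2 through 117 to 146 CPM in Nrf2 eyes. Nrf2 eyes lay above all control eyes in 5 of 7 cases, the exceptions being Nrf2 2 and Nrf2 4. Keap1 rose by 1.59-fold (log2 fold change 0.67, SE 0.14, adjusted p = 0.0348). The Nrf2 eye was higher in 7 of 7 mice, a direction shared by 5.65% of all genes tested, but mouse 4 turned under total-count scaling (90.4 CPM in its control eye and 89.0 in its Nrf2 eye). Keap1 lost its call when the vector row was left out of the library sizes (log2 fold change 0.65, adjusted p = 0.0547) and when no filter on low counts was applied (0.67, adjusted p = 0.0833). With 1 mouse left out it passed only without mouse 4 (adjusted p = 0.0107), and without mouse 1, 2, 3, 5, 6 or 7 adjusted p lay between 0.0510 and 0.119. An antisense gene, Gm16754, overlaps 3317 bp of Keap1, and the library kit keeps no strand, so reads from it cannot be told apart from Keap1 reads.

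Sqstm1 (chromosome 11, 50199366 to 50210827, minus strand) had the largest fold change of the mouse members. Control eyes ranged from 445 through 617 to 694 CPM, and Nrf2 eyes from 672 through 1074 to 1484 CPM. All Nrf2 eyes but Nrf2 4 lay above every control eye, 6 of 7. Sqstm1 rose by 1.89-fold (log2 fold change 0.92, SE 0.18, adjusted p = 0.0303), higher in 7 of 7 mice. It lost its call with no filter on low counts (0.92, adjusted p = 0.0545). With 1 mouse left out it passed only without mouse 4 (adjusted p = 0.00851), and without mouse 1, 2, 3, 5, 6 or 7 adjusted p lay between 0.0572 and 0.114. Mrnip, on the opposite strand, shares 750 bp with Sqstm1, and its own median was 3.69 CPM in control eyes and 3.12 in Nrf2 eyes (adjusted p = 0.68).

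Bach1 (chromosome 16, 87698945 to 87733346, plus strand) was the 1 mouse member of 9 whose groups did not overlap. The control eyes ranged from 8.34 through 11.4 to 12.4 CPM, and the Nrf2 eyes from 12.9 through 17.9 to 22.7 CPM. The gap between the groups was narrow, and it was bounded by Nrf2 4. Over all genes tested, 1.79% had groups that did not overlap, and 1.04% did so with Nrf2 eyes higher. Bach1 rose by 1.72-fold (log2 fold change 0.78, SE 0.14, adjusted p = 0.0221), higher in 7 of 7 mice, with per-mouse log2 differences from 0.48 to 1.25. It kept its call without mouse 2, 4 or 6 (lowest adjusted p 0.0175) and lost it without mouse 1 (0.0790), 3 (0.0613), 5 (0.0791) or 7 (0.0947). Counts of Bach1 were 236 to 929 per library, the lowest of the genes that passed.

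**Figure D2:**
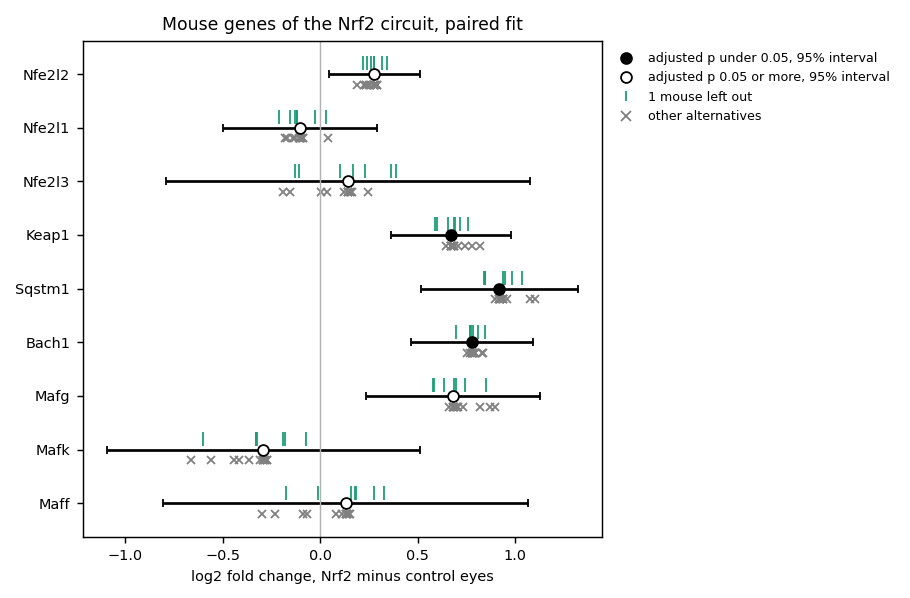
Log2 fold change (Nrf2 minus control eyes, horizontal) of the 9 mouse genes with 95% intervals; filled circles passed the adjusted p threshold of 0.05, ticks above each circle leave out 1 mouse and crosses below are the other processing alternatives. Keap1, Sqstm1, Bach1 and Mafg stay above 0 in every alternative shown, whereas Nfe2l1, Nfe2l3 and Maff have values on both sides of 0.

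None of the small Mafs, the partners that Nrf2 and Bach1 share, passed the test, and Mafg came closest. Mafg (chromosome 11, 120625117 to 120633600, minus strand) ranged from 47.9 through 52.2 to 67.1 CPM in control eyes and from 45.9 through 76.2 to 109 CPM in Nrf2 eyes. The lowest Nrf2 eye was Nrf2 4 and the highest control eye was control 4, so mouse 4 alone ran against the other 6 mice. The log2 fold change of 0.68 (SE 0.20, 95% interval 0.24 to 1.13) did not pass (adjusted p = 0.11), and the exact sign-flip permutation test gave p = 0.0469. Mafg passed without mouse 4 (log2 fold change 0.85, adjusted p = 0.0110), without mouse as a block (0.73, adjusted p = 0.0152), with DESeq2 (0.70, adjusted p = 0.0221) and with limma-voom (0.82, adjusted p = 0.00805). In those fits 12.2%, 6.75%, 11.9% and 15.9% of all genes passed, so more genes were called throughout. It shares 124 bp with Sirt7 on the same strand, which had a log2 fold change of -0.48 (adjusted p = 0.28).

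Mafk ranged from 12.6 through 31.9 to 69.6 CPM in control eyes and from 16.3 through 21.6 to 38.5 CPM in Nrf2 eyes. Mouse 4, whose control eye was the lowest and whose Nrf2 eye was the highest of their groups, was the only mouse with more Mafk in the Nrf2 eye. Its log2 fold change was -0.29 (SE 0.35, 95% interval -1.10 to 0.51, adjusted p = 0.70), and it ranged from -0.60 without mouse 4 (adjusted p = 0.127) to -0.073 without mouse 6 (adjusted p = 0.93), with -0.18 without mouse 3 and -0.19 without mouse 2. Tmem184a, on the opposite strand, shares 169 bp with Mafk. Maff was scarce, at 0.707 to 6.19 CPM in control eyes and 1.72 to 3.43 in Nrf2 eyes, or 20 to 150 counts per library. Its log2 fold change was 0.13 with a 95% interval of -0.81 to 1.07 (adjusted p = 0.90). Since the partners are interchangeable in binding CNC factors, their CPM were also summed. The sum was 91.9 ± 17.3 CPM (SD, n = 7) in control eyes and 108 ± 15.8 CPM (SD, n = 7) in Nrf2 eyes, a mean log2 difference of 0.24 on this total-count scale, higher in 6 of 7 mice (exact sign-flip permutation test, p = 0.0625). On the TMM scale the difference was 0.37, higher in 5 of 7 mice (exact sign-flip permutation test, p = 0.0625). By CPM, not scaled for length, Mafg made up 60.5% ± 13.7 of the sum in control eyes and 73.8% ± 11.1 in Nrf2 eyes, and Mafk 36.4% ± 12.6 and 23.6% ± 10.7, while Maff made up 3.17% ± 1.31 and 2.56% ± 0.67 (SD, n = 7). These shares were not tested.

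Without mice 3 and 4, 5 mice remained, and the ranges of Bach1, Mafg and Sqstm1 did not overlap between groups. Nrf2 4, now left out, had been the lowest Nrf2 eye for each of these genes. The share of all genes without overlap was not computed for 5 mice, and ranges of fewer eyes separate more easily. Sqstm1 then ended at 659 CPM in control eyes and began at 865 in Nrf2 eyes. Mafg ended at 56.0 CPM in control eyes and began at 71.5 in Nrf2 eyes, and Bach1 ended at 12.4 and began at 16.8. Keap1 still overlapped, with 84.3 CPM in the highest control eye and 82.2 in the lowest Nrf2 eye. In this smaller fit 4.51% of all genes passed. Keap1 (log2 fold change 0.78, adjusted p = 0.0404), Mafg (0.87, adjusted p = 0.0416) and Sqstm1 (1.07, adjusted p = 0.0338) passed, and Bach1 narrowly did not (0.83, adjusted p = 0.05003).

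To set the members beside each other, CPM were divided by exon length in kb. In control eyes Sqstm1 was highest at 179 ± 25.97 CPM per kb (SD, n = 7), followed by Nfe2l1 at 60.7 ± 15.4 and Nfe2l2 at 20.2 ± 3.56. Keap1 stood at 16.7 ± 2.30 CPM per kb, and its range overlapped with that of Nfe2l2. Below them came Mafg at 9.60 ± 1.13, Mafk at 8.97 ± 4.75 and Nfe2l3 at 7.82 ± 4.71, whose ranges overlapped each with the next. Bach1 at 1.80 ± 0.21 and Maff at 1.18 ± 0.68 were the lowest and overlapped with each other. The level of the repressor Bach1 lay below that of each CNC activator in control eyes with no overlap, and in Nrf2 eyes its range overlapped with that of Nfe2l3. In Nrf2 eyes the order was the same except at the places where control ranges overlapped: Keap1 (24.5 ± 5.02) stood above Nfe2l2 (22.2 ± 2.91), and Nfe2l3 (7.42 ± 2.91) above Mafk (6.32 ± 2.21). The vector transcript was not placed, since its length is not among the annotated mouse genes.

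**Figure D3:**
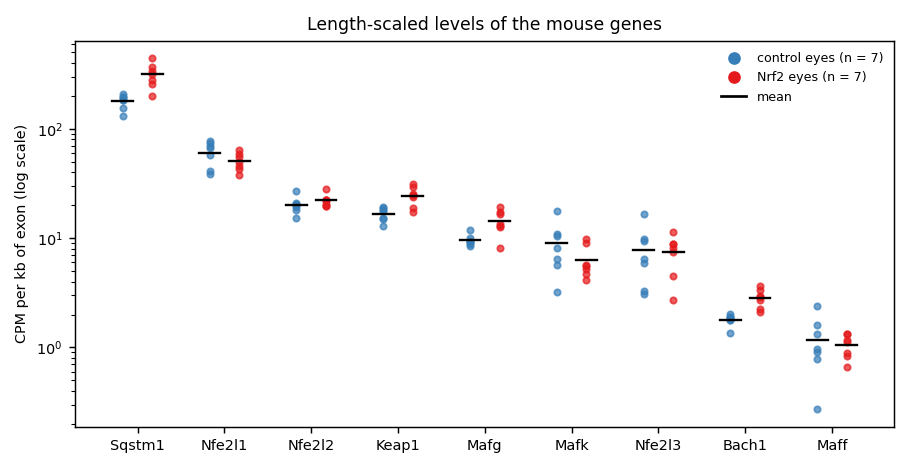
CPM per kb of exon (vertical, log scale) of the 9 mouse genes, ordered by their control mean; each point is 1 eye and the bars are means of 7 eyes. By the means, Sqstm1 lies more than a log10 unit above Mafg, Mafk and Nfe2l3, and Bach1 and Maff lie lowest.

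Nrf2 eyes varied in the amount of vector transcript, so the members were set against it within these 7 eyes, on log2 CPM by total count. Sqstm1 was higher where the vector was higher (Pearson r = 0.88, exact permutation p = 0.00238, 0.0214 adjusted over 9 genes; Spearman rho = 0.86, exact permutation p = 0.0238, adjusted 0.0714). Leaving out Nrf2 4 and Nrf2 1, the eyes farthest from the median vector level, left r at 0.88. Mafg showed r = 0.92 (exact permutation p = 0.00853, adjusted 0.0256) and rho = 0.86 (exact permutation p = 0.0238, adjusted 0.0714), with r = 0.69 without the same eyes. Mafk ran the other way, with r = -0.81 (exact permutation p = 0.00556, adjusted 0.0250) and rho = -0.86 (exact permutation p = 0.0238, adjusted 0.0714), r = -0.61 without those eyes, and r = -0.69 (adjusted 0.13, exact permutation) on the TMM scale. For the other members the adjusted exact permutation p of r was 0.21 or more. Keap1 had r = 0.65 and Bach1 r = 0.63, but Bach1 fell to r = -0.11 without Nrf2 4 and Nrf2 1, so its relation rested on those eyes. Mouse Nfe2l2 had r = 0.11, and r = 0.54 on the TMM scale (adjusted exact permutation p = 0.38). The calls for r also depended on single eyes. For Sqstm1 the adjusted exact permutation p was 0.30 without Nrf2 4, 0.113 without Nrf2 5 and 0.0625 without Nrf2 1. For Mafg it was 0.371 without Nrf2 4, 0.117 without Nrf2 5, 0.0708 without Nrf2 7 and 0.0625 without Nrf2 1. For Mafk it was 0.35 without Nrf2 4, 0.117 without Nrf2 5, 0.0625 without Nrf2 1 and 0.0542 without Nrf2 6. The sign of r was kept for these genes in each case, and the calls held in 4 of 7 cases for Sqstm1 and in 3 of 7 for Mafg and for Mafk. Keap1 gained a call in 1 of 7 cases, without Nrf2 2 (r = 0.95, adjusted exact permutation p = 0.0208).

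**Figure D4:**
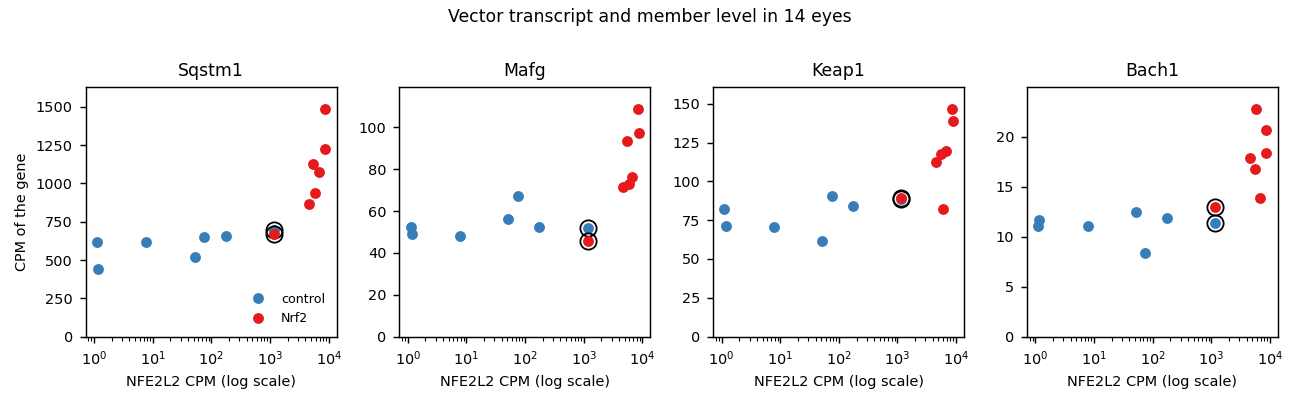
CPM of Sqstm1, Mafg, Keap1 and Bach1 (vertical) against CPM of the vector transcript NFE2L2 (horizontal, log scale) in 14 eyes; blue points are control eyes, red points Nrf2 eyes, and black rings mark control 3 and Nrf2 4. The ringed libraries meet at 1163 CPM of the vector, at the level of the control eyes for Sqstm1, Mafg and Keap1.

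The levels of the mouse members were also correlated with each other within each group. Among the 36 pairs of mouse members in Nrf2 eyes, Mafg and Sqstm1 were the only pair to pass, with r = 0.97 (exact permutation p = 0.000198, 0.00714 adjusted over 36 pairs) and rho = 1.00 (exact permutation p = 0.000397, adjusted 0.0143). The correlation was 0.90 without the eyes farthest from the median. In control eyes none of the 36 pairs passed, and the closest were Nfe2l3 with Mafk (r = 0.94, adjusted exact permutation p = 0.0786) and Maff with Mafk (r = 0.94, adjusted exact permutation p = 0.0893).

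Keratin markers of a surface epithelium moved with several members. The summed level of Krt5, Krt14, Krt12, Krt6a, Sprr1a and Dsg3, genes of corneal and conjunctival epithelium and no part of the RPE program, ranged from 733 CPM in control 4 to 37618 in control 6 (median 13865) in control eyes. In Nrf2 eyes it ranged from 1346 CPM in Nrf2 7 to 16150 in Nrf2 5 (median 6540). Of these 6 genes 0 of 6 passed, with a median log2 fold change of -1.33, and none of the 6 was at 0 in all libraries. Their relation to the members was examined after values had been seen, over 18 relations (9 members in each group). In control eyes Mafk followed the epithelial sum (r = 0.94, exact permutation p = 0.000198, adjusted 0.00357; rho = 1.00, exact permutation p = 0.000397, adjusted 0.00714). Leaving out control 4 and control 6 left r at 0.95 for Mafk. Maff did likewise (r = 0.97, exact permutation p = 0.000992, adjusted 0.00893; rho = 0.93, exact permutation p = 0.00675, adjusted 0.0243; r = 0.82 without the same eyes). Nfe2l3 had r = 0.81 (exact permutation p = 0.0137, adjusted 0.0616) and rho = 0.96 (exact permutation p = 0.00278, adjusted 0.0243), with r = 0.90 without those eyes. Nfe2l1 ran the other way in control eyes (r = -0.70, exact permutation p = 0.0635, adjusted 0.145; rho = -0.89, exact permutation p = 0.0123, adjusted 0.0369; r = -0.90 without those eyes). In Nrf2 eyes Sqstm1 ran opposite to the epithelial sum (r = -0.89, exact permutation p = 0.00675, adjusted 0.0405; rho = -0.93, exact permutation p = 0.00675, adjusted 0.0243; r = -0.83 without Nrf2 7 and Nrf2 5). Mafg did so too (r = -0.83, exact permutation p = 0.0181, adjusted 0.0650; rho = -0.93, exact permutation p = 0.00675, adjusted 0.0243; r = -0.88 without those eyes). The vector itself tended to be lower in Nrf2 eyes with more of these keratins (r = -0.67, exact permutation p = 0.0867; rho = -0.79, exact permutation p = 0.0480; r = -0.78 without Nrf2 7 and Nrf2 5). The part of the surface epithelium in the member values, and in their relation to the vector, was not tested.

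**Figure D5:**
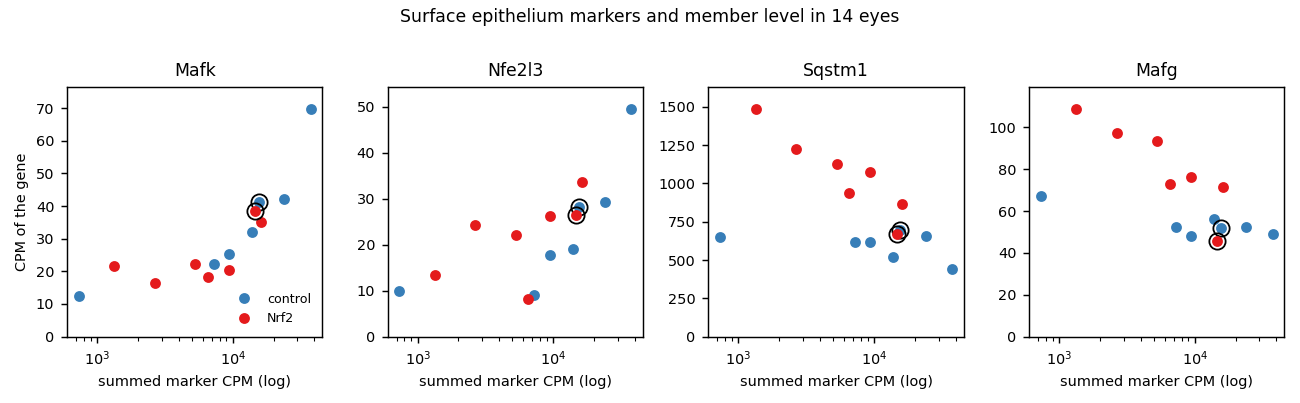
CPM of Mafk, Nfe2l3, Sqstm1 and Mafg (vertical) against the summed CPM of 6 surface epithelium markers (horizontal, log scale) in 14 eyes; blue points are control eyes, red points Nrf2 eyes, and black rings mark control 3 and Nrf2 4. Control eyes climb from 12.6 to 69.6 CPM of Mafk along the axis, and Sqstm1 descends along it among Nrf2 eyes.

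Around the members, 55 further regulators and partners of Nrf2 were listed, of which 54 could be tested. Of the 54, 2 were higher, 0 lower and 52 did not pass, with a median log2 fold change of 0.00, against 2.94% higher and 0.491% lower over all genes. Park7 (DJ-1), a redox-sensitive protein that stabilises Nrf2, had a median of 171 CPM in control eyes and 241 in Nrf2 eyes (log2 fold change 0.69, SE 0.15, adjusted p = 0.0439), higher in 7 of 7 mice. Optn, an autophagy receptor like Sqstm1, had medians of 136 and 181 CPM (log2 fold change 0.61, SE 0.13, adjusted p = 0.0444), also higher in 7 of 7 mice. Both genes lay close to the threshold of 0.05, and the list was called at about the rate of all genes. None of the 4 listed genes of the Keap1 ubiquitin ligase passed: Cul3 had a log2 fold change of 0.06, Rbx1 0.05, Nedd8 0.17 and Cand1 -0.41, with adjusted p of 0.23 or more. The coactivators and nuclear partners did not pass either (0 of 8), although their median log2 fold change was -0.35. Their summed level was 476 to 556 CPM in control eyes and 346 to 452 in Nrf2 eyes, higher in the Nrf2 eye of 0 of 7 mice. This sum is on the total-count scale and was not tested. Nor did the other bZIP factors that were tested pass (0 of 12), among them Bach2 (log2 fold change 0.33, adjusted p = 0.46) and Jun (-0.44, adjusted p = 0.36). The genes that process or degrade Nfe2l1 and Bach1 gave 0 of 4 and 0 of 2.

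Of 29 Nrf2 targets tested (30 listed), 25 were higher in Nrf2 eyes, 0 lower and 4 did not pass (Txn1, Gsta4, Tkt and Slc48a1), with a median log2 fold change of 2.01. Over all genes 2.94% were higher and 0.491% lower, and the list was chosen with earlier results of these data known. The summed level of the 30 targets overlapped between groups. It was 16680.1 CPM in control 3, the highest control eye, and 16260.5 in Nrf2 4, the lowest Nrf2 eye. For reference, the quinone reductase Nqo1 had a log2 fold change of 2.05, the heme oxygenase Hmox1 4.30, the glutathione synthesis genes Gclc and Gclm 4.16 and 2.99, the sulfiredoxin Srxn1 4.67 and the thioredoxin reductase Txnrd1 3.53. The control members of the circuit that rose, at log2 fold changes of 0.67 to 0.92, were thus below the median of the targets.

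As a description of what else followed the vector, log2 CPM of each gene was correlated with that of NFE2L2 over the 14 libraries, among 12025 genes with at least 5 CPM on average. Because the libraries fall into groups by vector, these correlations largely restate the comparison between groups. The most alike were Cyp1a1, a cytochrome P450 of the aryl hydrocarbon response (r = 0.97), Ccer2 (0.96), the glutathione transferase Gstm1 (0.96), Csrp2 (0.95) and Layn (0.95). The most opposite were the chromatin remodelling subunit Baz1b (-0.94), the cleavage stimulation factor Cstf3 (-0.93), Frmd4b (-0.93), Gdpd3 (-0.92) and the microtubule-associated Map7 (-0.92). Among the members, Sqstm1 ranked highest at place 164 of 12025 (r = 0.84), followed by Keap1 at 444 (0.75), Bach1 at 552 (0.71) and Mafg at 561 (0.71). Mouse Nfe2l2 ranked at 1567 (r = 0.42), and Mafk (-0.34) and Nfe2l1 (-0.37) were on the opposite side.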

How the data were processed

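Both eyes of 7 rd1 mice gave 14 RPE libraries, grouped by treatment and paired by the animal number in the labels. The authors amplified polyA RNA with a low-input kit and the submitters' processing notes name FastQC and Salmon 0.9.1. The authors deposited gene-level estimated counts as whole numbers, unnormalized, made with annotation of mouse build mm10. They divide shared reads by a model and carry no strand. The labels name 2 sequencing runs without saying which library was in which, so no within-run values could be given. Of 34452 mouse rows, 34401 matched GENCODE M21 (GRCm38). Promoter sequences are from RefSeq (GRCm38.p6).

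Counts were fitted with edgeR 4.0.16 (R 4.3.3) by the quasi-likelihood test on treatment with mouse as a block, TMM normalization, filterByExpr (minimum count 10) and Benjamini-Hochberg adjustment over 16290 rows, the vector included. The threshold was an adjusted p of 0.05. Per-mouse differences of log2 CPM (prior count 2) were tested by exact sign-flip permutation (128 patterns, smallest p 0.0156) and correlations by exact permutation over 5040 pairings (Python 3.11.15, scipy 1.17.1). The procedures were tested on simulated data. Deviations from the group means were correlated between the eyes of each mouse over 12025 genes. The correlations were 0.03, 0.07, 0.10, -0.44, 0.41, -0.26 and 0.19 in mice 1 to 7, so eyes of the same mouse were not consistently alike. P-values of the paired fit and of the sign-flip test rest on the spread of the differences between the eyes of each mouse. Those of the correlations rest on the spread between eyes of 1 group. Libraries held 16548349 to 50543008 counts, and the lowest counts among the members were those of Maff and of the vector in control 1 and control 6. The size of counting error beside the spread of each gene was not tested. Alternatives were no block, other scalings and filters, DESeq2 1.42.0, voom with quality weights (limma 3.58.1), a threshold of 0.01, the vector row left out and mice left out. The members and gene lists were chosen with earlier results of these data known. Genes named were the 10 members, listed regulators that passed, 6 reference targets, the 5 genes most and least like the vector, and, named after their values were seen, listed genes used as examples.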

Additional observations from a re-analysis of the deposited data

Results flagged for a closer look

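In each group of 7 eyes the extreme value at either end was set against its neighbour by Dixon's criterion, for the 10 members and the summed small Mafs. The criterion was applied to CPM, not to log2 CPM. Of 22 groups 4 stood out. The nominal rate of 1 in 20 (1.1 of 22) holds for independent groups of normally distributed values. The groups here share libraries, Mafg is also part of the sum, and the distribution of CPM was not checked, so no conclusion is drawn from that rate. The vector transcript in control 3 was 1163 CPM, where the next control eye had 175 CPM. Mouse Nfe2l2 in Nrf2 2, the shallowest library, was 107 CPM, where the next Nrf2 eye had 85.6. Control 4 gave the other values: Bach1 at 8.34 CPM, below the next control eye at 11.1, and Mafg at 67.1 CPM, above the next at 56.0. Control 4 also had the lowest surface epithelium level of all eyes (733 CPM) and the highest summed RPE marker level (32224 CPM). The cause of these values was not tested.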

How the results depend on the processing

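Across settings that kept all mice, the log2 fold changes of Nfe2l2, Keap1, Bach1, Mafg, Mafk and Sqstm1 kept their direction. The number of differing mouse genes was 559, and it was 1100 without the block for mouse (547 shared with the paired fit), 1943 with DESeq2, 2592 with voom, 347 with no filter, 56 at an adjusted p of 0.01, 1081 without vector and block, and 111 to 1998 with 1 mouse left out (111 without mouse 7, 1998 without mouse 4). The block for mouse was used because the eyes share an animal. Without it NFE2L2 passed (log2 fold change 4.91, adjusted p = 0.0399), as did Mafg (0.73, and 0.71 with the vector row also left out), Maff turned to -0.065 (-0.090 with the vector row also left out), and no other member changed its call. NFE2L2 also passed with DESeq2 (7.42), voom (6.84) and without mice 3 and 4 (9.60, or 7.25 without the block). Mafg passed with DESeq2 (0.70), voom (0.82) and without mice 3 and 4 (0.87, or 0.90 without the block). Keap1 lost its call with no filter (0.67) or without the vector row (0.65), Sqstm1 with no filter (0.92), and Bach1 without mice 3 and 4 (0.83). At 0.01 none of Keap1 (0.67), Bach1 (0.78) and Sqstm1 (0.92) passed. Nfe2l1 turned to 0.042 with voom. Without mice 3 and 4 Nfe2l3 turned to -0.16 (-0.19 without the block) and Maff to -0.23 (-0.30 without the block).

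With 1 mouse left out, log2 fold changes ranged from 6.35 to 8.50 for NFE2L2, 0.59 to 0.76 for Keap1, -0.21 to 0.028 for Nfe2l1, -0.13 to 0.39 for Nfe2l3, 0.70 to 0.84 for Bach1, 0.58 to 0.85 for Mafg, -0.60 to -0.073 for Mafk, -0.18 to 0.33 for Maff and 0.84 to 1.03 for Sqstm1. The summed small Maf difference ranged from 0.15 to 0.30, with p = 0.0313 without mouse 6 (exact permutation). Vector correlations ranged from -0.36 to 0.28 for Nfe2l2, 0.59 to 0.95 for Keap1, -0.75 to 0.25 for Nfe2l1, 0.74 to 0.94 for Mafg, -0.93 to -0.73 for Mafk and 0.85 to 0.92 for Sqstm1, and Mafk lost its call on the TMM scale (-0.69). The causes of changed values and calls between settings were not tested. Depth limits Maff (20 to 150 counts) and the vector in control 6 and control 1 (28 and 45 counts).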
